A study of Mus musculus with 36 samples.

Results

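The complement and lectin pathway was described in mouse liver through 31 genes, which were chosen by name and cover the classical, lectin, alternative and terminal branches together with regulators and receptors. Of these, 30 had at least 1 probe on the array and 29 had a probe among the 21781 distinct probes of the authors' processed table, and those 29 are described below. C7 was matched to no probe, and the only probe of the receptor C5ar1 lay outside that table, with a mean Cy5 signal of 1.66 times the local background. The samples were livers of 36 adult male mice, 12 in each of 3 groups, measured on two-colour Agilent whole-genome arrays. The sample labels give the strain as C57BL/6J, whereas the methods of the study name the substrain C57BL/6JOlaHsd, and the difference was not settled here. The t=0 mice were killed after 3 weeks of adaptation to a mild-high-fat diet that supplied 30% of energy as fat. The HF mice then ate that diet for 12 more weeks, and the HF-Q mice ate it for 12 weeks with 0.33% (w/w) quercetin, a plant flavonol. All mice had been fasted for a short time before they were killed. Since both later groups were 12 weeks older than the t=0 mice, age and time on the diet cannot be told apart in the comparisons with t=0. Those 2 comparisons share the t=0 mice, and both comparisons of HF-Q share the HF-Q mice.

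Complement is a cascade of plasma proteins that marks foreign or damaged surfaces. The classical branch starts with C1q on antibody, the lectin branch with mannose-binding lectins on sugars, and the alternative branch with C3 that activates by itself on surfaces. All branches meet at C3 and lead to the terminal components, which assemble into a pore in the target membrane, while inhibitors in plasma and on host cells hold the cascade in check. Hepatocytes secrete most of these proteins, whereas C1q and properdin are made mainly by macrophages and other myeloid cells. In whole liver, more cells of a type and more mRNA per cell cannot be told apart.

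The values are log2 levels of the individual mouse (Cy5) relative to a common pool (Cy3), put back on an intensity scale by the authors, so that a difference of 1 is a doubling and a level is not comparable between probes. Each gene is given by its brightest probe, and a difference was called when the limma p-value, adjusted by Benjamini-Hochberg over all 21781 probes, was below 0.05. All 39 member probes of the table were well above background on every array in Cy5, except Cfd, which was so on 10 of 12 t=0 and 11 of 12 HF arrays. The 10 spots of the brightest C3 probe held at least 1 saturated Cy5 spot on 20 arrays (5 t=0, 6 HF and 9 HF-Q), so the C3 differences may be understated. The arrays lay on 9 slides of 4 that each held all 3 groups. One array, HF-Q replicate 2, differed from the rest, since 96.7% of its spots exceeded background clearly in Cy5 and 56.4 to 67.4% did so on the others. A second array, HF replicate 5, correlated at 0.9736 with the mean of the other arrays over all probes, against 0.9902 to 0.9977 for each of the rest; without it, 0 members were called between HF-Q and HF and 3 between HF and t=0. The hepatocyte genes checked were bright (Alb at 11500 times background and Apoa1 at 3630 times) and their mean level spanned -0.33 to 0.20 in t=0, -0.28 to 0.26 in HF and -0.25 to 0.21 in HF-Q, relative to the mean of all mice. Of the 10 hepatocyte genes in the table none was called between HF-Q and HF, and 2 were called lower than t=0 in each later group.

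**Figure D1:**
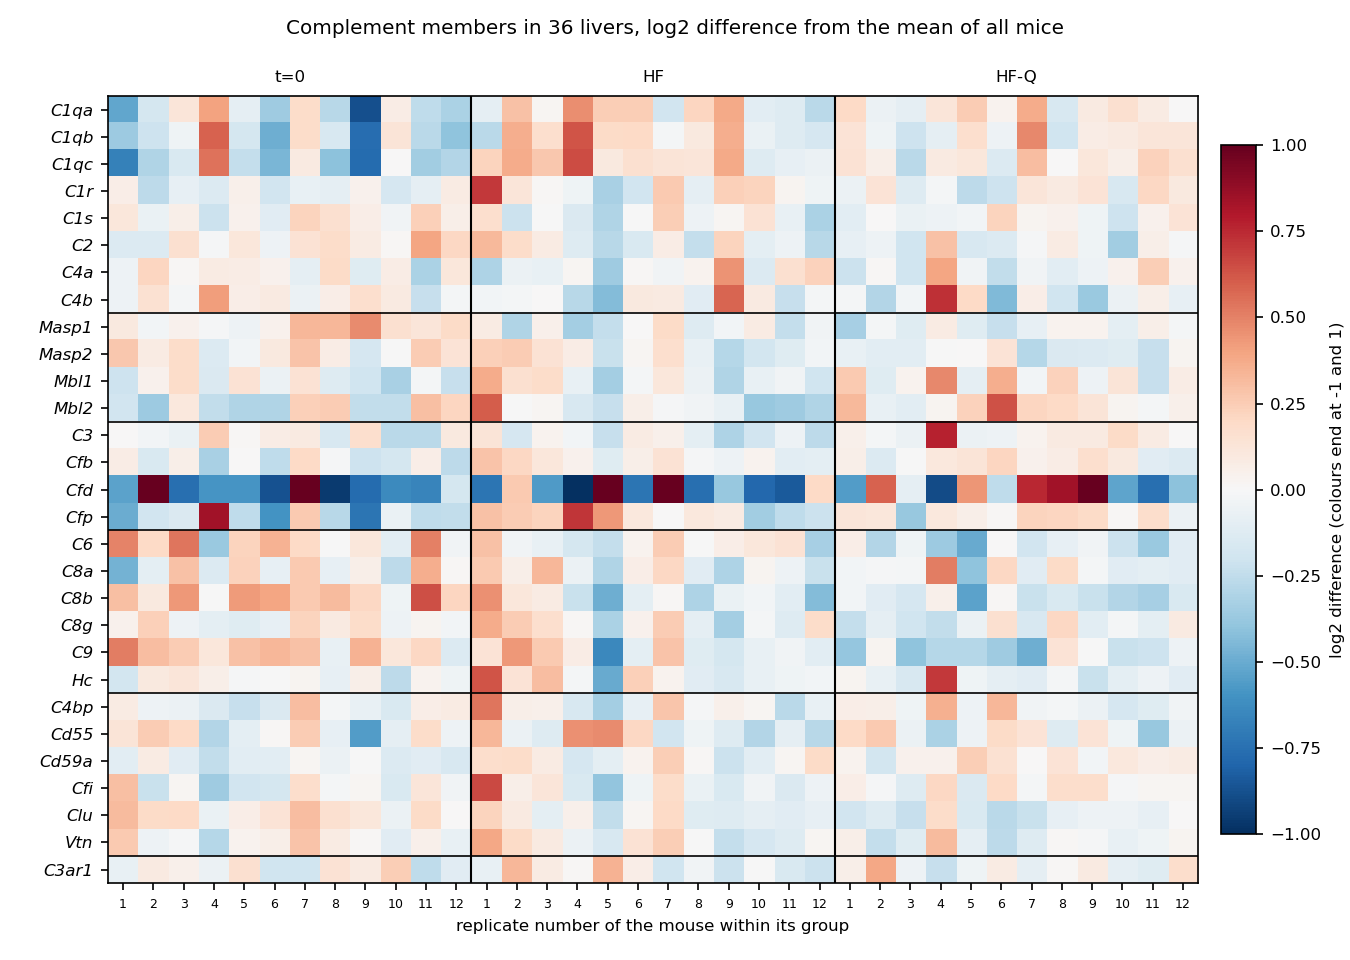
Each row is 1 of the 29 complement members, ordered by branch, and each column 1 liver; colour gives the log2 difference from the mean of all 36 mice. C6, C8b and C9 are mostly red in the t=0 group and mostly blue in HF-Q, and HF-Q replicate 4 has its own column of red for C3, C4b and Hc.

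The terminal components held 1 of the 3 members called in HF and 3 of the 8 called in HF-Q against t=0, all lower, while 10.4% and 5.3% of all probes were called lower in these comparisons; 1 of 6 genes in HF is near that background. Hc (complement C5) starts the pore, C6 joins it, C8a, C8b and C8g are the chains of C8, and C9 forms the ring. C8a and C8b are neighbours on mouse chromosome 4 and are transcribed towards each other; the array annotation (mouse build mm8) places their probes at chr4:104313806-104313865 and chr4:104302326-104302385. The probe of C9 lies at chr15:6430342-6430401 and that of C6 at chr15:4748363-4748422. The windows from 250 bases before to 50 bases after the RefSeq start site (build GRCm38.p6, given 5′ to 3′ on the gene's strand) are shown for these genes because C6, C8b and C9 were lower in one or both later groups and C8a, the partner of C8b, was not called. They lie at chr4:104876349-104876648 on the minus strand for C8a, and on the plus strand at chr4:104766067-104766366 for C8b, chr15:6445096-6445395 for C9 and chr15:4726960-4727259 for C6. Capitals mark matches to 5 motifs searched on both strands, namely GTTAAT (an HNF1 half-site), TTGCNNAA (C/EBP), CAAAGTCCA (HNF4), TTCCNGGAA (STAT3) and TATAAA, the core promoter box.
C8a: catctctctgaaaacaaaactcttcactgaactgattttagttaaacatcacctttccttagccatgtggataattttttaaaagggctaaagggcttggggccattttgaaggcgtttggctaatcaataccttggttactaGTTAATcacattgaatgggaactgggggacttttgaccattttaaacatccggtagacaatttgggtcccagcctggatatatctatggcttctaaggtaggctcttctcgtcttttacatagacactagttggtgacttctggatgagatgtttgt
C8b: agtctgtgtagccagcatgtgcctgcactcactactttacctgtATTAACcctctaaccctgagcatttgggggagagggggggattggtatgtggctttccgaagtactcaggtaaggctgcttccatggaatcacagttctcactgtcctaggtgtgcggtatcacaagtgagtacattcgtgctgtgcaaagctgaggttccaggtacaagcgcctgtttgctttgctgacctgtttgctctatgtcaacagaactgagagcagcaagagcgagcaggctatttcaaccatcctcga
C9: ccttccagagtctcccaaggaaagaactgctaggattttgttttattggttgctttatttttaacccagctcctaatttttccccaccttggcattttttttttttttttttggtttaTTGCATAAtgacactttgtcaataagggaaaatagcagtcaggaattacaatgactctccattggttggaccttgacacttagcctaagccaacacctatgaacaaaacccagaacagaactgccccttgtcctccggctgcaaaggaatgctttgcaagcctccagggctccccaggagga
C6: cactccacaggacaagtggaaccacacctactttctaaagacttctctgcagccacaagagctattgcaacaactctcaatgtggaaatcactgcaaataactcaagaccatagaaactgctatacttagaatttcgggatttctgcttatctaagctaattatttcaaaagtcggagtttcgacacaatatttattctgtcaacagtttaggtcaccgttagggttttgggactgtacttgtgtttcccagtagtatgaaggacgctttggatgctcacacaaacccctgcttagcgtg

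Both C8 genes held 1 HNF1 half-site, at -107 on the coding strand in C8a and at -206 on the opposite strand in C8b, counted to the first base of the match from the start site. C9 held 1 C/EBP match at -132 on the coding strand, and none of the 5 motifs was found in the C6 window. Of all 32851 windows in the table, 7.1% held the HNF1 half-site and 10.8% the C/EBP motif. Among the 25 windows of the 23 members that had one, 9 held the HNF1 half-site and 4 the C/EBP motif. The HNF4, STAT3 and TATAAA motifs were found in 0, 0 and 5 of the 25 windows. Of all windows, 0.475%, 1.15% and 13.6% held them. These counts describe the letters in the windows and no binding.

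C8b was the member with the lowest p-value in both comparisons with t=0. Its level was 13.35 at the lowest, 13.68 at the median and 14.04 at the highest in t=0, against 12.91, 13.32 and 13.85 in HF and 12.86, 13.23 and 13.45 in HF-Q. The ranges overlapped, but 11 of 12 HF mice and 12 of 12 HF-Q mice were below the t=0 median. The level fell to 0.779 of that of t=0 in HF (log2 fold change -0.36, SE 0.09, limma adjusted p = 0.0051) and to 0.731 in HF-Q (-0.45, SE 0.07, adjusted p = 0.000221). Within slides, the HF difference from t=0 ranged from -0.91 to -0.11 and the HF-Q difference from -0.84 to -0.14, so that C8b was lower on 9 of 9 slides in both. C8a spanned 14.54 to 15.37 in t=0, 14.70 to 15.34 in HF and 14.61 to 15.52 in HF-Q, and its differences from t=0 were -0.01 in both later groups (95% interval -0.20 to 0.17 in HF and -0.19 to 0.18 in HF-Q). Within a mouse, the C8b value minus the C8a value had a median of -1.41 in t=0 (range -1.61 to -0.84), -1.78 in HF (-1.86 to -1.37) and -1.78 in HF-Q (-2.07 to -1.61), a contrast that was chosen after the values were seen. The third chain, C8g, spanned 15.80 to 16.16 in t=0, 15.58 to 16.29 in HF and 15.67 to 16.13 in HF-Q, with differences from t=0 of 0.00 and -0.10 that were not called.

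C9 had a lowest, median and highest level of 12.71, 13.12 and 13.36 in t=0, of 12.20, 12.79 and 13.28 in HF, and of 12.36, 12.59 and 12.98 in HF-Q. All 12 HF-Q mice were below the t=0 median, and C9 fell to 0.745 of the t=0 level in HF-Q (log2 fold change -0.42, SE 0.08, limma adjusted p = 0.000669). In HF, 10 of 12 mice were below that median, and the difference of -0.22 (SE 0.09, adjusted p = 0.0882) was not called; it was called under 7 of 15 alternatives, among them the fit with the slide as a block (-0.26, adjusted p = 0.0454). Without HF replicate 5, which had the lowest C9 and C8b values of its group, the HF difference of C9 was -0.16 (adjusted p = 0.137) and that of C8b -0.32, which was still called. C6 had 13.11, 13.68 and 14.02 in t=0, 13.15, 13.50 and 13.78 in HF, and 12.98, 13.33 and 13.55 in HF-Q. All 12 HF-Q mice again lay below the t=0 median, and C6 fell to 0.783 of the t=0 level in HF-Q (-0.35, SE 0.09, adjusted p = 0.0112), while the HF difference of -0.17 (SE 0.09, adjusted p = 0.183) was not called. With the slide as a block C6 was called in HF too (-0.21, adjusted p = 0.0289), as it was under 3 of 15 alternatives in all, and no slide had a higher C6 value in HF than in t=0. Within slides, the HF-Q differences of C9 and of C6 were each below 0 on 8 of 9 slides, and the remaining slide gave 0.15 and 0.12. Hc spanned 16.94 to 17.32 in t=0, 16.70 to 17.83 in HF and 16.98 to 17.91 in HF-Q, with differences from t=0 of 0.05 in HF and 0.00 in HF-Q. Of the 6 terminal genes measured, 1 fell in HF and 3 fell in HF-Q against t=0, with median log2 fold changes of -0.09 and -0.22 beside 0.00 and 0.01 over all probes.

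**Figure D2:**
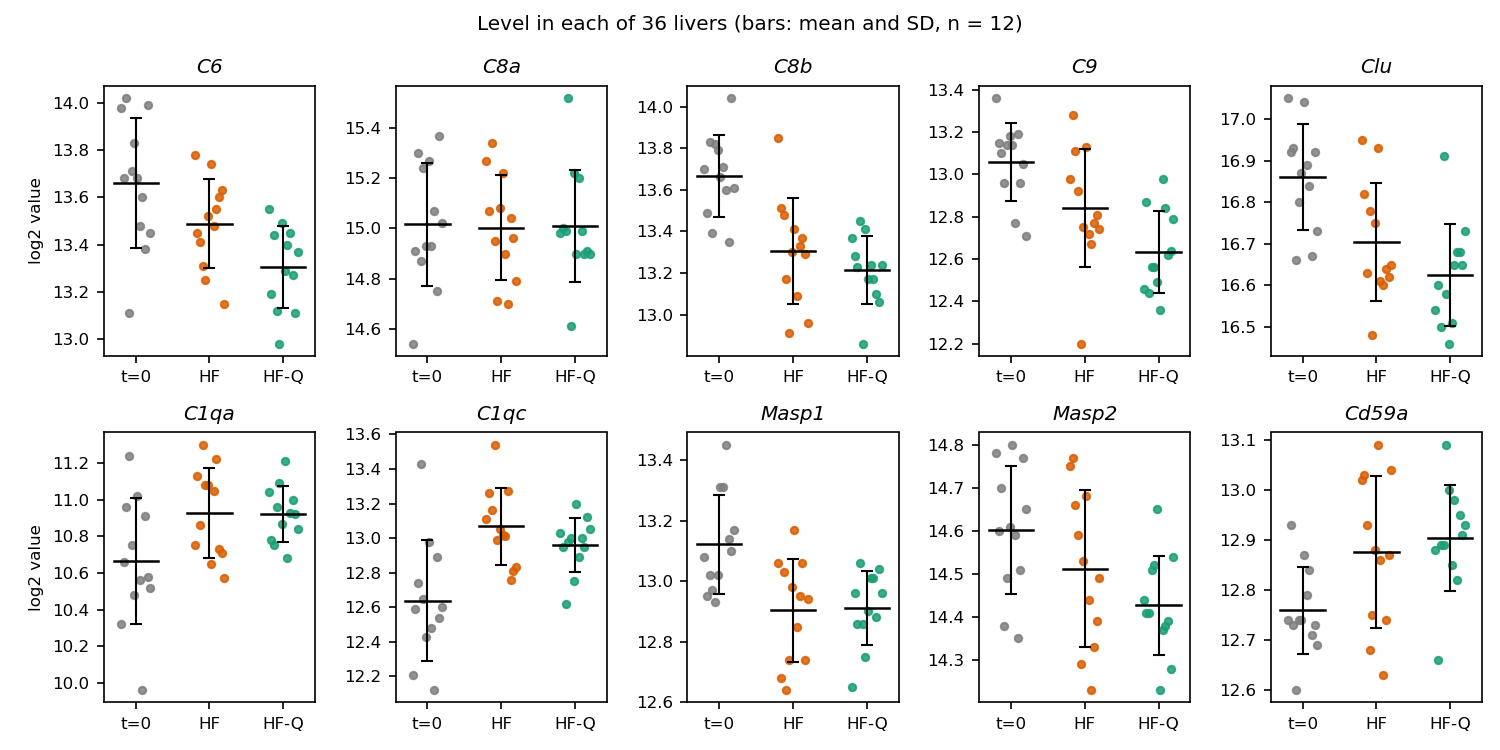
Log2 level (vertical axis, its range set per gene) in each of 36 livers by group, with the mean and SD of 12 mice as black bars, for the members called in a comparison and for C8a and C1qa. C8b, C9 and C6 step down from t=0 to HF-Q, whereas C8a stays at a mean of 15.02, 15.00 and 15.01.

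By the brightest probes, the classical branch held the only called increase in HF. C1qa, C1qb and C1qc encode the 3 chains of C1q, the recognition molecule, and lie next to each other on chromosome 4 (mm8, chr4:136168570-136168629, chr4:136152739-136152798 and chr4:136161927-136161986 for the probes). C1qc spanned 12.12 to 13.43 in t=0 with a median of 12.59, 12.76 to 13.54 in HF with a median of 13.03, and 12.62 to 13.20 in HF-Q with a median of 12.99. The t=0 group was the widest, yet all 12 HF and all 12 HF-Q mice were above its median. C1qc rose 1.35-fold in HF (log2 fold change 0.43, SE 0.11, limma adjusted p = 0.00779) and by a log2 difference of 0.32 in HF-Q (SE 0.10, adjusted p = 0.0411) against t=0. The HF call held under all 15 alternatives and the HF-Q call under 10 of 16, since the scanner-based values, quantile normalization and the methods' t-test gave adjusted p-values of 0.0566 to 0.085. C1qa had a median of 10.62 in t=0 (range 9.96 to 11.24), 10.95 in HF (10.57 to 11.30) and 10.93 in HF-Q (10.68 to 11.21). C1qb had a median of 10.73 in t=0 (10.16 to 11.51), 11.05 in HF (10.65 to 11.55) and 11.00 in HF-Q (10.71 to 11.40). Their differences from t=0 pointed the same way (0.26 and 0.28 in HF, 0.26 and 0.21 in HF-Q), with adjusted p-values of 0.0949 and 0.0913 in HF and of 0.0954 and 0.212 in HF-Q, and were not called.

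The 3 C1q genes moved together from mouse to mouse. Over the 36 mice, after removal of the group means, C1qa correlated with C1qb (Pearson r = 0.92, permutation p = 1e-05, adjusted p = 2e-05; Spearman rho = 0.91, p = 1e-05) and with C1qc (r = 0.86, p = 1e-05, adjusted p = 2e-05; rho = 0.79, p = 1e-05), where 1e-05 is the smallest p that 100000 permutations within groups can give and the adjustment covers the 8 pairs computed. Their mean correlated with the mean of 16 Kupffer cell and macrophage genes (r = 0.89, permutation p = 1e-05, adjusted p = 2e-05; rho = 0.78, p = 1e-05), at r = 0.96 in t=0, 0.79 in HF and 0.76 in HF-Q, and at 0.81 without the 2 mice farthest from the C1q median. That macrophage list was itself at -0.80 to 0.72 in t=0, -0.17 to 0.65 in HF and -0.25 to 0.44 in HF-Q, relative to the mean of all mice. Of its 16 genes, 15 were higher in each later group than in t=0, with median log2 fold changes of 0.36 and 0.32. Of these, 5 were called in HF and 3 in HF-Q, while 10.9% and 6.62% of all probes were called higher. The part of these cells in the C1q differences was not tested. Properdin (Cfp), a stabilizer of the alternative convertase that is also made by myeloid cells, had a median of 11.80 in t=0 (range 11.32 to 12.89), 12.15 in HF (11.70 to 12.76) and 12.15 in HF-Q (11.67 to 12.27), with uncalled differences from t=0 of 0.30 (SE 0.14, adjusted p = 0.118) and 0.25 (SE 0.12, adjusted p = 0.186).

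**Figure D3:**
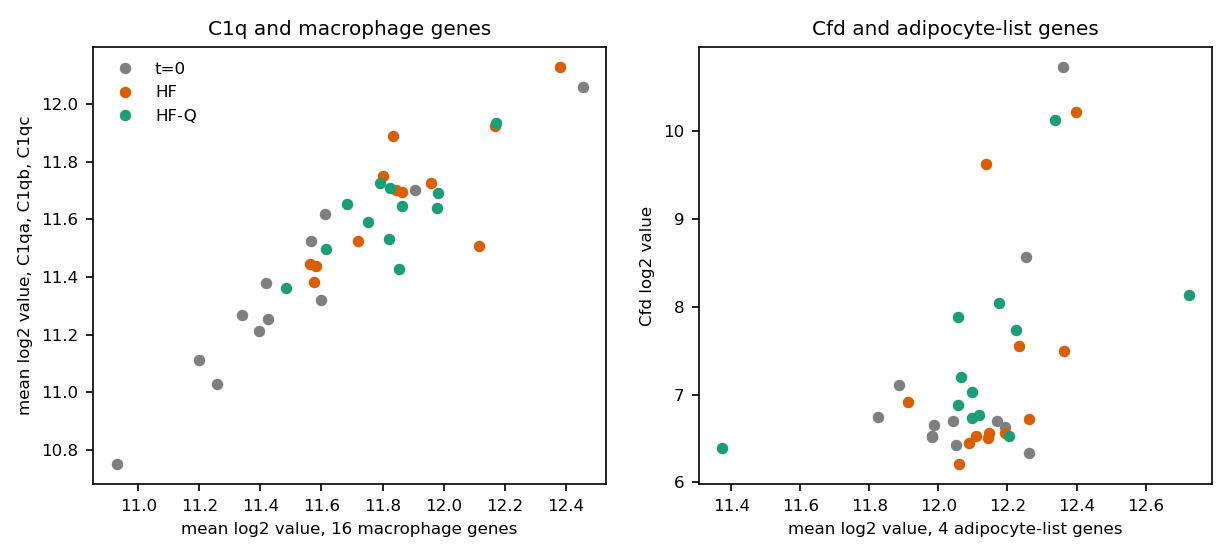
Left, the mean log2 value of the 3 C1q genes against that of 16 macrophage genes; right, Cfd against the mean of 4 adipocyte-list genes; each point is 1 liver, coloured by group. The C1q means rise with the macrophage means in every group (r = 0.96, 0.79 and 0.76), while 4 livers lie above a Cfd value of 9 and the others reach 8.56.

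The other classical genes are secreted by hepatocytes: C1r and C1s are the proteases bound to C1q, and C2 and C4 are what C1s cuts. None of their brightest probes was called in any comparison, and their differences from t=0 lay between -0.11 and 0.15 in HF and between -0.13 and 0.07 in HF-Q. For C2 and C1s a dimmer second probe was called. The second C2 probe, at 89.1 times background against 501 for the first, spanned 12.08 to 12.64 in t=0, 11.73 to 12.32 in HF and 11.77 to 12.32 in HF-Q, with log2 fold changes against t=0 of -0.28 (SE 0.07, limma adjusted p = 0.0035) in HF and -0.26 (SE 0.07, adjusted p = 0.0124) in HF-Q. The first C2 probe gave -0.11 (SE 0.07, adjusted p = 0.273) and -0.13 (SE 0.06, adjusted p = 0.197), so the probes had the same sign and differed in size. The second C1s probe gave -0.26 (SE 0.08, adjusted p = 0.0289) in HF and -0.16 (SE 0.07, adjusted p = 0.132) in HF-Q, against -0.09 and -0.05 for the first. The second C1r probe carries an accession that the array describes as the duplicate gene C1rb, and it was not called. The probes of C4a and C4b each list transcripts of both genes, so their signals may be shared. C4b was at 732 times background and C4a at 5.64 times, and neither was called (differences of -0.09 to 0.00 over the 3 comparisons).

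In the lectin branch, decreases of both proteases were called against t=0, and neither lectin was called. MASP-1 and MASP-2 are the proteases that mannose-binding lectins carry. The brightest Masp1 probe (mm8, chr16:23364870-23364929) had a lowest, median and highest level of 12.93, 13.09 and 13.45 in t=0, 12.64, 12.95 and 13.17 in HF, and 12.65, 12.93 and 13.06 in HF-Q. It fell to 0.86 of the t=0 level in HF (log2 fold change -0.22, SE 0.07, limma adjusted p = 0.0232, lower in 11 of 12 mice than the t=0 median) and to 0.865 in HF-Q (-0.21, SE 0.06, adjusted p = 0.0236, lower in 12 of 12). With Arntl mRNA, which cycles with the time of day, added to the model, the HF difference was -0.15 (adjusted p = 0.142) and no longer called; mean Arntl was 8.17 in t=0, 8.78 in HF and 7.78 in HF-Q. Masp2 had a median of 14.61 in t=0 (range 14.35 to 14.80), 14.51 in HF (14.23 to 14.77) and 14.41 in HF-Q (14.23 to 14.65), and fell in HF-Q by 0.17 on the log2 scale (SE 0.06, adjusted p = 0.047). That call was close to the threshold and held under 12 of 16 alternatives. It was lost, among others, without HF-Q replicate 2 (adjusted p = 0.0538) and with the slide as a block (adjusted p = 0.0759). The other 2 Masp2 probes were also called in HF-Q (-0.25, adjusted p = 0.00979, and -0.23, adjusted p = 0.0357), and the one that the array assigns to transcript variant 1 also in HF (-0.20, SE 0.07, adjusted p = 0.0362).

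Masp1 was the only member whose probes were called in opposite directions. The gene is known to give several proteins by alternative splicing, MASP-1, MASP-3 and MAp44, and which of them each probe reads was not determined. A further Masp1 probe (chr16:23395094-23395153) lay outside the authors' table, at 1.56 times background, and is not described. The dimmest probe in the table (chr16:23367721-23367780) moved with the brightest. It differed from t=0 by -0.23 (SE 0.05, limma adjusted p = 0.00235) in HF and -0.20 (SE 0.05, adjusted p = 0.0118) in HF-Q. The remaining probe in the table, which the array annotation places at chr16:23383805-23383864, spanned 12.04 to 12.38 in t=0, 12.19 to 12.65 in HF and 12.13 to 12.40 in HF-Q. It rose by a log2 fold change of 0.23 in HF (SE 0.06, adjusted p = 0.00537), and its difference from t=0 in HF-Q was 0.06 (SE 0.05, adjusted p = 0.415). Of the cholangiocyte marker list, 4 of 6 genes were called higher in HF and none in HF-Q against t=0. Of all probes, 10.9% and 6.62% were called higher in these comparisons. Other lists also held genes called higher, such as 5 of 16 Kupffer cell and macrophage genes in HF and 3 in HF-Q. Between HF-Q and HF, 6 of 6 cholangiocyte genes (1 called) and 13 of 16 Kupffer cell and macrophage genes (0 called) were lower. In that comparison 2.36% of all probes were called. A correlation of a list with this probe over the mice was not computed, and the part of any cell type in its values was not tested. Between HF-Q and HF the probe differed by -0.16 (SE 0.06, unadjusted p = 0.00893, adjusted p = 0.151), with all 12 HF-Q mice below the HF median. Its value minus that of the brightest probe in the same mouse was -1.19 to -0.65 in t=0, -0.70 to -0.21 in HF and -0.92 to -0.40 in HF-Q. These within-mouse values overlapped only narrowly between t=0 and HF, and they were examined after the probes' directions were known. For the dimmest probe they were -3.78 to -3.40, -3.79 to -3.27 and -3.67 to -3.45.

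**Figure D4:**
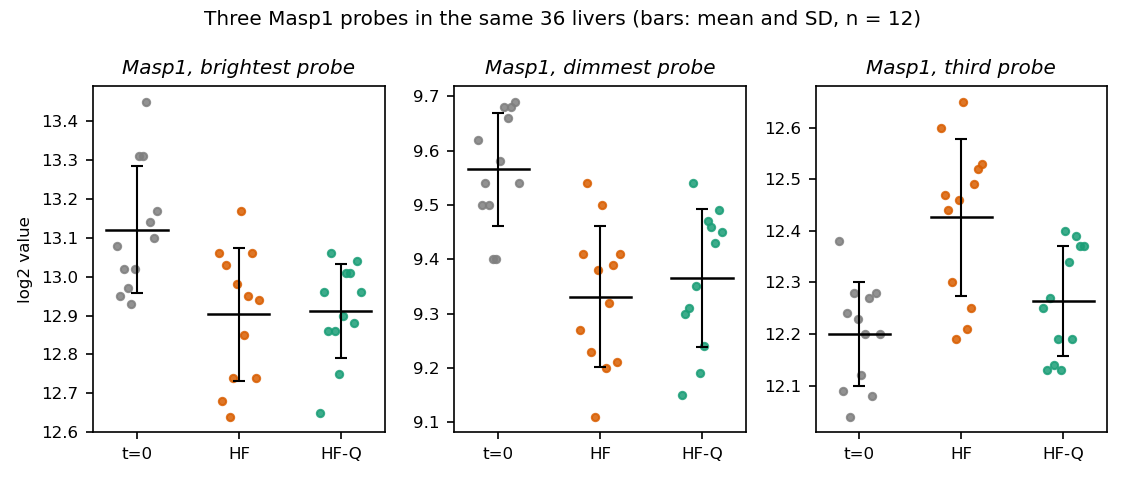
Log2 level (vertical axis, its range set per panel) of the 3 Masp1 probes in the authors' table by group, 1 point per liver, with the mean and SD of 12 mice as black bars. The brightest and dimmest probes are lower in HF (means 12.90 and 9.33) than in t=0 (13.12 and 9.57), and the remaining probe is higher (12.42 against 12.20).

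Mbl1 and Mbl2, the 2 mouse mannose-binding lectins, were not called. Mbl2 had a lowest, median and highest level of 16.73, 16.88 and 17.39 in t=0, 16.71, 17.04 and 17.70 in HF, and 16.99, 17.18 and 17.73 in HF-Q. The HF-Q mice lacked the low values of both other groups, and 10 of 12 were above the HF median. The difference from HF was 0.21 (SE 0.09, limma unadjusted p = 0.0305, adjusted p = 0.262), and it was called with quantile normalization (0.28, adjusted p = 0.023) and with array weights (0.28, adjusted p = 0.0396), out of 17 alternatives. Mbl1 spanned 13.27 to 13.78 in t=0, 13.26 to 13.97 in HF and 13.37 to 14.08 in HF-Q, with a difference of 0.11 (SE 0.08, adjusted p = 0.524) between HF-Q and HF. Mbl1 and Mbl2 correlated at r = 0.46 over the mice (permutation p = 0.00543, adjusted p = 0.00621; rho = 0.36, p = 0.0352, adjusted p = 0.0402), and at 0.12 in the scanner-based values.

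The alternative branch and C3 gave no call in any of the 3 comparisons. Under 1 of 16 alternatives each, C3 and Cfp were called higher in HF-Q against t=0. These were quantile normalization for C3 (0.23, limma adjusted p = 0.03) and array weights for Cfp (0.28, limma adjusted p = 0.0493). C3, which all branches cut, was the brightest member with a median of 19.03 in t=0 (range 18.76 to 19.28), 18.95 in HF (18.72 to 19.16) and 19.07 in HF-Q (18.97 to 19.80). All 12 HF-Q mice were above the HF median, and the difference was 0.18 (SE 0.08, limma unadjusted p = 0.0252, adjusted p = 0.239). Without HF-Q replicate 4 it was 0.12 (adjusted p = 0.28), and the dimmer second probe gave 0.15 (SE 0.11, adjusted p = 0.539). Cfb, which supplies the catalytic part of the alternative convertase, spanned 16.47 to 16.99 in t=0, 16.67 to 17.08 in HF and 16.66 to 17.01 in HF-Q, with uncalled differences from t=0 of 0.12 in each later group. Cfd (adipsin), the protease that cuts factor B and that adipose tissue makes in quantity, varied most of all members, with a pooled within-group SD of 1.21 against a median of 0.19 over the 29 members. It spanned 6.33 to 10.73 in t=0, 6.21 to 10.21 in HF and 6.39 to 10.12 in HF-Q, and its 95% intervals for the group differences reached from -0.84 to 1.19. The 4 highest values, from 9.62 to 10.73, came from 1 t=0, 2 HF and 1 HF-Q liver. In those 4 livers the adipocyte gene Adipoq, which is outside the table, had a Cy5 signal of 2.47 to 5.74 times background. In the other livers it was 1.09 to 1.62 times, except for 4.74 in HF-Q replicate 8 and 17.8 in HF-Q replicate 2. The array of HF-Q replicate 2 had a median Cy5 signal of 8.96 times background, against 2.04 to 3.24 on the others, so its 17.8 is not comparable. Other genes of the list differed in how they went with Cfd. In the 4 livers Fabp4 was 12.50 to 12.69, above its group medians of 12.28 (t=0), 12.44 (HF) and 12.24 (HF-Q). Cidec was 8.15 to 9.07 there, above its group medians of 8.33, 7.96 and 8.24. Both genes were highest in HF-Q replicate 8 (13.42 and 9.24), where Cfd was 8.13. Plin1, also outside the table, was at 1.78 to 2.25 times background in the 4 livers. It was at 5.54 times in HF replicate 1, where Cfd was 6.56. Lpl (10.55 to 11.14 in the 4 livers) and Car3 (16.71 to 17.63) were within the range of the other livers. Cfd correlated with the mean of the 4 adipocyte-list genes in the table (r = 0.48, permutation p = 0.00285, adjusted p = 0.0038; rho = 0.40, p = 0.0152, adjusted p = 0.0243), and 4 of the 8 genes of that list were not in the table. The part of adipose tissue in these values was not tested.

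Among the regulators, Clu and Cd59a were called, both in HF-Q against t=0. Clusterin (Clu) binds the forming pore in plasma, and its level was 16.66 to 17.05 in t=0 with a median of 16.88, 16.48 to 16.95 in HF with a median of 16.65, and 16.46 to 16.91 in HF-Q with a median of 16.62. It fell to 0.849 of the t=0 level in HF-Q (log2 fold change -0.24, SE 0.05, limma adjusted p = 0.00531), with 11 of 12 mice below the t=0 median and a lower value on 9 of 9 slides. In HF the difference was -0.16 (SE 0.06, adjusted p = 0.0546), just outside the threshold, and it was called under 11 of 15 alternatives. Cd59a encodes the membrane inhibitor that keeps C9 from inserting into host cells. It had a median of 12.74 in t=0 (range 12.60 to 12.93), 12.88 in HF (12.63 to 13.09) and 12.90 in HF-Q (12.66 to 13.09), and rose 1.11-fold in HF-Q (0.15, SE 0.05, adjusted p = 0.0375). The call held under 12 of 16 alternatives. It was lost, among others, with the slide as a block (0.13, adjusted p = 0.102) and with the Arntl covariate (0.14, adjusted p = 0.0528). The dimmer second probe of Cd59a gave 0.09 (SE 0.06, adjusted p = 0.393). Vitronectin (Vtn), which also blocks the pore, C4bp, a cofactor that inactivates C4b, and Cfi, the protease that cuts C3b and C4b, lay between -0.07 and 0.09 in the comparisons and were not called. Cd55, which speeds the decay of convertases on host cells, was at 6.18 times background and differed from t=0 by 0.03 in HF and 0.00 in HF-Q. C3ar1, the receptor for the C3a fragment, was at 3.03 times background and differed from t=0 by 0.01 and 0.02; weak signals such as these understate differences, because the authors' values are not background-corrected.

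The comparison of quercetin with the control diet asks whether quercetin altered hepatic gene expression. None of the 29 members was called (0% against 2.36% of all probes). With the Arntl covariate, 0.00459% of all probes and 0 members were called. Mean Arntl was 8.78 in HF and 7.78 in HF-Q, and the part of time of day in these differences was not tested. By their brightest probes, 4 members differed at an unadjusted limma p below 0.05, against 15.4% of all probes. Mbl2 and C3 differed upwards, and C6 and C9 downwards. Dimmer probes of Masp1 (-0.16, unadjusted limma p = 0.00893) and Masp2 (-0.14, unadjusted limma p = 0.034) also passed, with adjusted p-values of 0.151 and 0.277. The methods' t-test after Benjamini-Hochberg adjustment also called 0 members. The difference of C6 was -0.18 (SE 0.07, unadjusted p = 0.0199, adjusted p = 0.217), with 11 of 12 HF-Q mice below the HF median. The difference of C9 was -0.21 (SE 0.09, unadjusted p = 0.0382, adjusted p = 0.29), with 9 of 12 below it. The lowest p-value of the classical branch was that of C1qc (-0.11, SE 0.08, adjusted p = 0.518) and that of the regulators was Clu (-0.08, SE 0.06, adjusted p = 0.504). Over the 29 members the median log2 fold change was -0.02, beside 0.01 over all probes, and 12 were higher and 17 lower. Apart from Cfd, the 95% intervals of all members lay between -0.40 and 0.40, which bounds the differences that these data leave room for and does not show that they were 0.

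**Figure D5:**
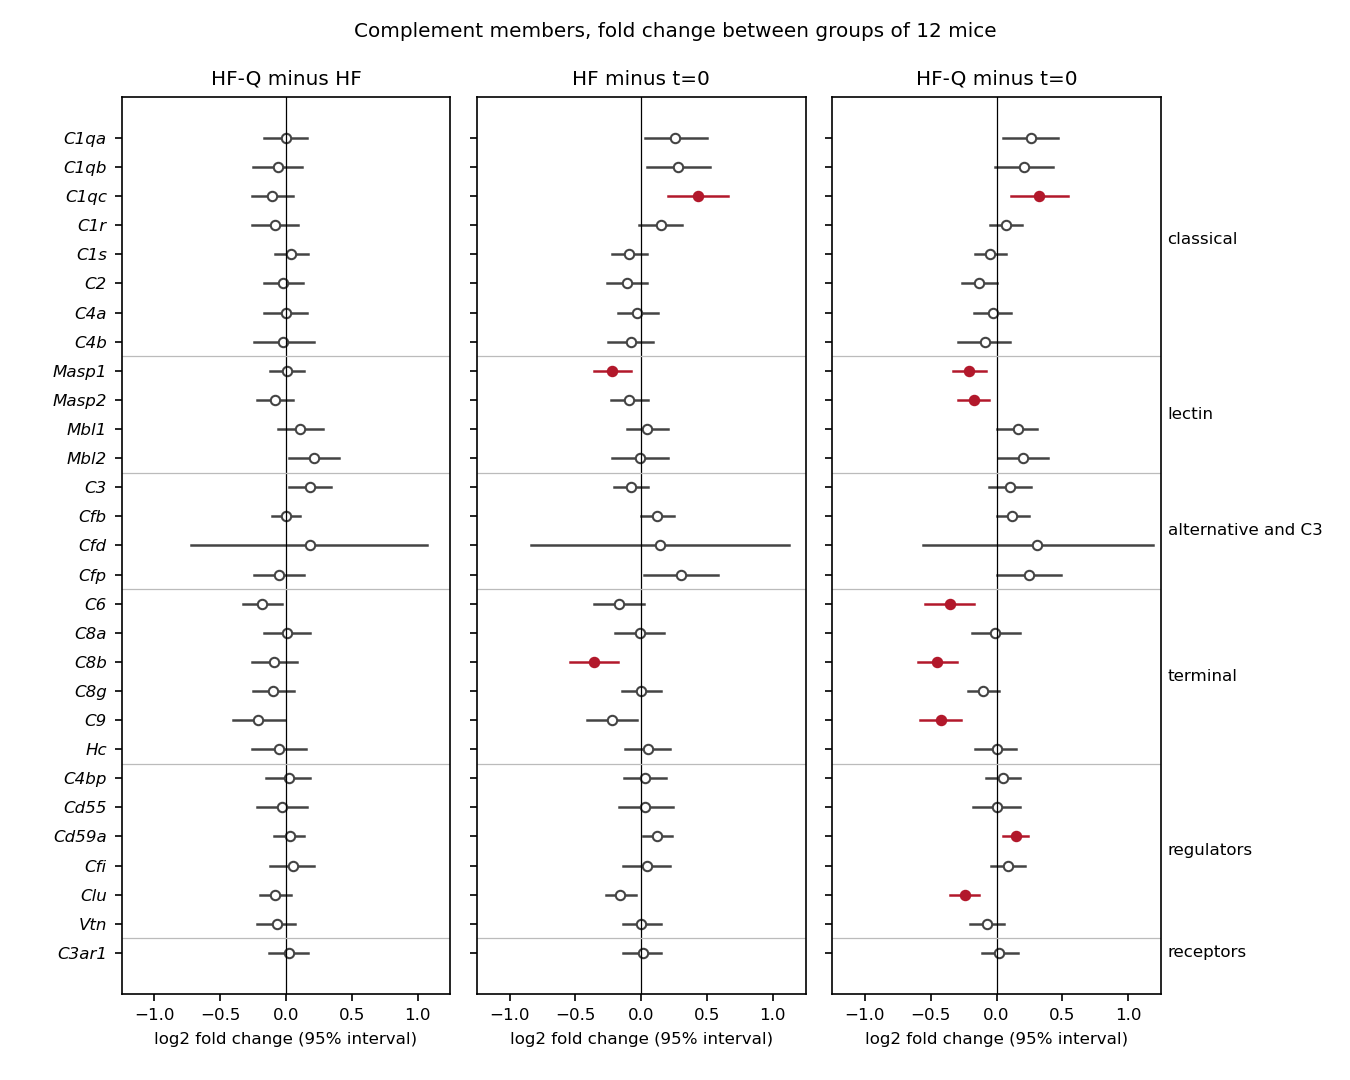
Log2 fold change with its 95% limma interval for the 29 members (rows, by branch) in the 3 comparisons (panels); filled red points passed the adjusted threshold of 0.05. No member is filled for HF-Q minus HF, 3 are for HF minus t=0 and 8 are for HF-Q minus t=0, and Cfd has the widest interval in each panel.

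Against t=0, 3 of the 29 members were called in HF (10.3%, against 21.3% of all probes) and 8 in HF-Q (27.6%, against 11.9%). In HF, 1 member rose (10.9% of all probes were called higher) and 2 fell (10.4% lower). In HF-Q, 2 members rose (6.62% of all probes) and 6 fell (5.3%). The share in HF-Q was above the background, and neither share was tested. Most members are bright, and among the brighter 50% of probes 26.3% were called in HF and 19.4% in HF-Q. The gap in HF-Q is thus smaller beside probes of like brightness. The share in HF was below the background with these values but not under every setting. Of the members called in HF-Q and not in HF, none differed between HF-Q and HF by the test above, so the counts do not show that quercetin changed them. The median log2 fold change of the 29 members was 0.00 in both comparisons, beside 0.00 and 0.01 over all probes. No member had groups that did not overlap in either comparison, which held for 0.565% and 0.193% of all probes. With values computed from the scanner files by loess, 8 members were called in HF (27.6%, against 21.3% of all probes), 7 of them lower, and the lower calls then included C2, Masp2, Clu, C6 and C9. With the slide as a block, 6 were called in HF (20.7%, against 17.3%), so the position of the HF share relative to the background turned with the processing.

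A second list of 27 complement-related genes held 20 with a probe in the table, and none of the 20 was called between HF-Q and HF. Against t=0, 2 rose and 2 fell in HF, and 2 rose in HF-Q, with median log2 fold changes of 0.04 and 0.06. Called genes were thus 4 of 20 in HF and 2 of 20 in HF-Q, near the 21.3% and 11.9% of all probes, so the counts do not set the list apart and the genes below are given as single values. Susd4, which encodes a membrane protein with complement control modules, spanned 10.28 to 11.36 in t=0, 10.92 to 11.88 in HF and 10.94 to 11.89 in HF-Q. It rose by 0.63 (SE 0.12, limma adjusted p = 0.000521) in HF and 0.66 (SE 0.11, adjusted p = 0.00049) in HF-Q, a larger log2 difference than that of any member. Colec11, a further lectin of the pathway, rose in HF by 0.19 (SE 0.06, adjusted p = 0.0257), and C5ar2, a receptor of C5a, rose in HF-Q by 0.24 (SE 0.08, adjusted p = 0.0389). Cpn2, a subunit of the carboxypeptidase that inactivates C3a and C5a, fell in HF by 0.24 on the log2 scale (SE 0.06, adjusted p = 0.00292). C1s2, the duplicate of C1s, fell in HF by 0.25 on the log2 scale (SE 0.08, adjusted p = 0.0295) at a signal of 4.05 times background.

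Members also varied together from liver to liver within groups. C8a and C8b correlated over the 36 mice within groups (r = 0.71, permutation p = 1e-05, adjusted p = 2e-05; rho = 0.72, p = 1e-05), at r = 0.60 in t=0, 0.77 in HF and 0.83 in HF-Q. C4a and C4b correlated at r = 0.61 (permutation p = 0.00029, adjusted p = 0.000464; rho = 0.36, p = 0.0346, adjusted p = 0.0402) and at 0.36 without the 2 farthest mice, and their probes may read both genes. C3 correlated with the mean of 24 acute phase genes at r = 0.60 (permutation p = 0.0416, adjusted p = 0.0416) but not by rank (rho = 0.10, p = 0.547), and at -0.02 without the 2 farthest mice, so the relation rests on those mice. One of them was HF-Q replicate 4, whose acute phase mean was 1.27 above the mean of all mice, while the other HF-Q mice lay between -0.25 and -0.03 and the highest of the remaining 35 mice at 0.29. In that liver 13 of the 29 members were above, and 3 below, all of the other 11 HF-Q mice. Its C3 level was 19.80 against 18.97 to 19.22 in the other 11, its C4b level 15.99 against 14.82 to 15.46, and its Hc level 17.91 against 16.98 to 17.23. C8a was also highest there (15.52 against 14.61 to 15.22), whereas C9 (12.56 against 12.36 to 12.98) and C6 (13.12 against 12.98 to 13.55) were within the range of the others. Without this mouse, 0 members were called between HF-Q and HF and 8 between HF-Q and t=0. Within HF, replicate 1 held the highest value of the group for 14 of the 29 members, among them Hc (17.83), C1r (15.64), Cfi (17.40) and C8b (13.85). Replicate 5 held the lowest value for 12, among them Hc (16.70), C1r (14.61), Cfi (16.35) and C8b (12.91). Over all probes, the arrays of HF replicates 1 and 5 correlated at 0.9902 and 0.9736 with the mean of the others. The part of array-wide differences in these extremes was not tested.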

How the data were processed

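Liver RNA of 36 mice was hybridized on 4×44K two-colour arrays, each mouse in Cy5 against a Cy3 pool of all samples; the submitters' processing notes name Agilent Feature Extraction 10.5.1.1. The deposited table of the authors holds log2 values of 23256 spots. Set against the scanner files, these equal log2 Cy5 minus log2 Cy3 median signal plus each spot's mean log2 Cy3 signal, with every array at a median of 8.96 and no background correction (median absolute difference 0.019, correlation at least 0.9999), and its spots are those above 2 times background on average. The scanner files, per the file headers, hold linear median and background intensity, used for alternatives (normexp with offset 50 and loess).

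Spots of a probe were averaged to 21781 probes. Pairs of groups (12 mice each) were compared by lmFit and eBayes of limma 3.58.1 in R 4.3.3, with Benjamini-Hochberg adjustment over all probes and calls at 0.05, after a test on simulated data. Correlations used 100000 permutations within groups. Current symbols came from RefSeq accessions for 16104 probes of the table and from the name in the files for 3472, and 2205 stayed unnamed. The rule for naming was to account for every member, giving called members in full and, of the others, those of lowest p-value in each branch. Members and lists were chosen with earlier results of these data known. Alternatives changed the values, background correction, normalization, filter, probe choice, test, samples, blocks, weights and an Arntl covariate; leaving out HF-Q replicate 4 or HF replicate 5 was chosen after seeing the data. The labels do not say that replicate numbers pair mice across groups. The number of arrays limits the precision.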

Additional observations from a re-analysis of the deposited data

How the results depend on the processing

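The number of members called between HF-Q and HF stayed at 0 except for 1 (Mbl2) with quantile normalization and 1 with array weights (2.66% and 3.69% of all probes). Between HF and t=0 the 3 calls became 8 (27.6%) with scanner-based loess values, with or without background correction (21.3% and 21.9% of all probes), and 6 (20.7%) with quantile normalization (22.1%), processed signals (22.7%), no filter (9.63%), the slide as a block (17.3%), array weights (28.5%) or any probe of a member counted; the cause was not tested. The share of members was thus above that of all probes with both loess settings, no filter and the slide block, and below it under the other alternatives that test all probes. With no filter the shares are of unlike sets. The 29 members had passed the filter, whereas the 41174 probes include those that had not, so that setting does not place the members above a like background. Without HF replicate 5 the share of members was 10.3% against 21.8%. Between HF-Q and t=0 the 8 calls ranged from 6 to 10, and leaving out HF-Q replicate 2 gave 7 and HF-Q replicate 4 gave 8. The share of members was above that of all probes (6.48% to 19.4%) in each alternative fit. The 6.48% belongs to the fit with no filter, where the sets are again unlike. No log2 fold change of a member that was called turned its sign under an alternative. The correlation of C3 with the acute phase list went from 0.60 to -0.02 without the 2 farthest mice and to 0.35 in the scanner-based values, C4a with C4b from 0.61 to 0.36 and 0.48, Mbl1 with Mbl2 from 0.46 to 0.12 in the scanner-based values, C8a with C8b from 0.71 to 0.61 and Cfd with the adipocyte list from 0.48 to 0.30 in those values. Without the 2 farthest mice, C1qa with C1qb went from 0.92 to 0.88, C1qa with C1qc from 0.86 to 0.80 and the C1q mean with the macrophage list from 0.89 to 0.81.

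Mice with the same replicate number did not deviate together: the median correlation of their residuals was -0.00971 for HF-Q and HF, 0.0606 for HF and t=0 and 0.0327 for HF-Q and t=0, with 3, 4 and 4 of 12 pairs above 0.1. With the replicate block, 0 members were called between HF-Q and HF, 4 between HF and t=0 and 6 between HF-Q and t=0. Dim members (Cfd, C4a, Cd55 and C3ar1, at 3.03 to 6.18 times background) limit what these arrays can show.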
